A study of Mus musculus with 30 samples.

Results

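The genes followed here make, load and present peptides on major histocompatibility complex (MHC) class II molecules: Cd74, H2-Aa, H2-Ab1, H2-Eb1 and Ctss. They were picked from earlier results on the same kidneys, in which several of them were higher in old than in young mice and lower under calorie restriction. Their differences between the groups are therefore given as a description. Counts of those that passed a threshold are printed beside the share of all tested probe sets, and nothing is read from them. Every probe set that the array annotation ties to 1 of the 5 genes was taken, which gave 10 of the 13047 probe sets that are not controls. All 10 were among the 4428 probe sets that lay above a background floor on at least 5 arrays. Of the 6136 genes that the annotation names on the arrays, these are 5.

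Total RNA of C57BL/6 mouse kidney, from an inbred strain, was hybridised to 1-colour short-oligonucleotide arrays of 2 types, called A and B after the sample titles. The groups were calorie-restricted mice aged 30 months, old controls on control feed, also aged 30 months, and young controls on control feed aged 5 months, with 5 kidneys each and 30 samples in all. The labels compare old with young controls for ageing, and restricted mice with old controls for the diet. The sources used here state neither the degree of the restriction nor its start nor the sex of the mice. They also leave unstated whether the numbers in the titles stand for different mice, so p-values and standard errors rest on the spread between these samples. Both labelled comparisons use the same old controls, so a value that is high in them alone raises one difference and lowers the other.

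Class II molecules are pairs of an alpha and a beta chain that show peptides from the endosomes to CD4+ T cells. In the mouse, H2-Aa and H2-Ab1 encode the chains of the I-A molecule and H2-Eb1 the beta chain of I-E. Cd74, the invariant chain, fills the peptide groove until proteases of the endosome, cathepsin S (Ctss) last among them, trim it away. H2-DM then exchanges the remaining fragment for antigen peptide. Dendritic cells, B cells and many macrophages make these proteins, the kidney holds a resident network of such cells between its tubules, and interferon gamma can induce them in tubular epithelium through the coactivator CIITA. CIITA has no DNA contact of its own and is recruited by factors that sit on the X and Y boxes before class II genes.

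H2-Ab1, H2-Aa and H2-Eb1 follow each other on chromosome 17 in the RefSeq gene table of GRCm38.p6, with H2-Eb2 and H2-Ea next in line, and Ctss lies on chromosome 3. RefSeq promoter windows, 250 bases before to 50 bases after the gene start, were matched for 3 of the 5 genes. They are shown together with that of H2-DMb1, a chain of the peptide exchanger, because the class II chains share an arrangement of motifs that the Ctss window lacks. Capitals mark an X box core (GNAACT) followed by a Y box (TGATTGG), or in Ctss an interferon response element (GAAA, any 2 bases, GAAA). The motifs were chosen with the sequences in view, and a match is a description of letters, not of a bound factor. All windows are 5′ to 3′ on the strand of the gene.
H2-Aa, chr17:34287774-34288073, minus strand: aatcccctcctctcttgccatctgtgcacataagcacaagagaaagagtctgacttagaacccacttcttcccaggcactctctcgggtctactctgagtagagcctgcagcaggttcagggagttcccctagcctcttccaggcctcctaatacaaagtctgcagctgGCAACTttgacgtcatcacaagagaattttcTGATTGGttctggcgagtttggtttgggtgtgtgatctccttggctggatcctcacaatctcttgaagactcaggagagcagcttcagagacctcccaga
H2-Eb1, chr17:34305617-34305916, plus strand: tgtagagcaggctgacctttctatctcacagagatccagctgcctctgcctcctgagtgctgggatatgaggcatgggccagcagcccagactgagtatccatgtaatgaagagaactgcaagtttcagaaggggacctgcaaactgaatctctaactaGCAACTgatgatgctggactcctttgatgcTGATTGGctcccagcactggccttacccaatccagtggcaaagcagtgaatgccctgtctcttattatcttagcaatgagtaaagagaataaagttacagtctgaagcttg
H2-DMb1, chr17:34152941-34153240, plus strand: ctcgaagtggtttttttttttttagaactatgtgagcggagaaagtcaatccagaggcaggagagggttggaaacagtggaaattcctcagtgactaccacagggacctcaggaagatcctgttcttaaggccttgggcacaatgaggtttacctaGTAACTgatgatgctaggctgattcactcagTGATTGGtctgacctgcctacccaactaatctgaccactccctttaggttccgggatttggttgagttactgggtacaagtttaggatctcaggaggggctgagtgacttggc
Ctss, chr3:95526536-95526835, plus strand: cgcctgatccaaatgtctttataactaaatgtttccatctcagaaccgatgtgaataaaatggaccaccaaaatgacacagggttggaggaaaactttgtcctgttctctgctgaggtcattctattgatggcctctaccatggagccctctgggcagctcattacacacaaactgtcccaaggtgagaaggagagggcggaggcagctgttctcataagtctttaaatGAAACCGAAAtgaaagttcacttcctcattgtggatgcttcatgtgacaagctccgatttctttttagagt
The X box core GCAACT of H2-Aa began 81 bases before the start and its Y box 50 bases before, with 25 bases between them. In H2-Eb1 the same core began 91 bases before the start and was followed by its Y box after 24 bases. H2-DMb1 had the core GTAACT at 94 bases and a gap of 25 bases. Ctss carried GAAACCGAAA 21 bases before its start and no pair of X and Y boxes. Searched on both strands of all 32851 promoter windows, the X box core stood in 42.8%, the Y box in 7.82% and the interferon element in 3.44%. In the windows shown, the capitals of different motifs do not overlap. The ordered pair with a gap of 20 to 30 bases stood in 41 windows (0.125%).

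The deposited intensities of the arrays agreed closely in their overall level, with trimmed means of 1452 to 1483 before a last scaling. On type A, 33.5% to 37.5% of an array's values exceeded the floor of 1103, and on type B 23.8% to 27.6% exceeded the floor of 1821. The number of arrays limits the precision. The 7 kidney markers on the arrays, among them the phosphate transporter Slc34a1 and uromodulin (Umod), were above the floor on all 15 arrays of their type, and 0 passed by limma in any comparison, also at an unadjusted p under 0.05. On type B, young values of targets that have several probe sets with the suffixes i, f, s or r stood in an order unlike that of the old controls, with r = -0.20 over 85 probe sets against 0.95 for restricted kidneys and old controls. Those rows were left out of the fit, and no class II probe set was among them. Of the 6 class II probe sets of type B, 5 were of the class with a single such probe set per target, where young and old controls correlated with r = 0.93 over 1578 probe sets, and 1 was of the class with no such suffix, where r was 0.97 over 241. These correlations run across probe sets and not across replicates.

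The invariant chain was highest in old controls. Cd74 (probe set X00496_s_at, array B) read 8647, 7902, 6855, 11425 and 9117 in restricted kidneys 1 to 5, 18921, 21919, 17615, 15965 and 22677 in old controls and 4773, 6735, 6248, 5088 and 5533 in young controls. All 5 old controls stood above all restricted kidneys, and all 5 restricted kidneys stood above all young controls. The group means were 8789 ± 1703 in restricted kidneys, 19419 ± 2842 in old controls and 5675 ± 811 in young controls (SD, n = 5 each). Cd74, which lies on chromosome 18, is also a receptor of the cytokine MIF. On the log2 scale the difference of old controls from young controls was 1.78 ± 0.16 (SE), or 3.43-fold. Restricted kidneys differed from old controls by -1.15 ± 0.16, which is 2.22-fold lower, and from young controls by 0.62 ± 0.16. Titles 1 to 3 and titles 4 and 5 of each group form sets that differed across many probe sets in earlier work on these data, and the labels do not say what they are. In these sets the Cd74 difference was 1.73 and 1.85 for old against young controls and -1.32 and -0.90 for restricted kidneys against old controls.

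The alpha chain of I-A was measured by 5 probe sets, and all 5 were highest in old controls on average. The brightest on array A, AF027865_2_s_at, read 6935, 7419, 6380, 6015 and 5292 in restricted kidneys, 19040, 14757, 13571, 15545 and 14308 in old controls and 6270, 6992, 6067, 3464 and 4246 in young controls. Every old control exceeded every kidney of the other groups, while restricted kidneys and young controls overlapped. The difference of old controls from young controls was 1.56 ± 0.18 on the log2 scale. Restricted kidneys differed from old controls by -1.27 ± 0.18, which is 2.41-fold lower, and from young controls by 0.28 ± 0.18.
Also on array A, k01923_f_at read 7340, 8758, 6980, 7683 and 5776 in restricted kidneys, 12182, 12357, 15360, 14821 and 12611 in old controls and 5115, 6401, 6721, 3239 and 5065 in young controls. The dimmer K01925_f_at read 3206, 3588, 2566, 2197 and 2135 in restricted kidneys, 5932, 5060, 4307, 6236 and 4655 in old controls and 2277, 2815, 2682, 1365 and 1859 in young controls. In both, the old controls again stood apart from the other groups, which overlapped with each other. Old minus young controls gave 1.38 ± 0.18 and 1.29 ± 0.21, and restricted kidneys minus old controls gave -0.89 ± 0.18 and -0.96 ± 0.21, in the order in which the probe sets were named.
On array B, the probe set for GenBank target K01923, the target of k01923_f_at as well, read 8137, 9069, 6513, 7220 and 6876 in restricted kidneys, 14039, 9254, 11672, 15354 and 12791 in old controls and 5648, 7802, 6231, 6291 and 6662 in young controls. The lowest old control, number 2, stood just above the highest restricted kidney, also number 2. The differences were 0.94 ± 0.15 for old against young controls and -0.73 ± 0.15 for restricted kidneys against old controls.
The last of the 5, the probe set for GenBank target V00832 on array B, read 8162, 8352, 5681, 5564 and 7216 in restricted kidneys, 8802, 8852, 8102, 12061 and 11025 in old controls and 5742, 4017, 4898, 5542 and 5236 in young controls. Here the restricted kidneys 1 and 2 reached above the lowest old control, so the 2 groups overlapped, and the restricted kidneys 3 and 4 lay within the young range. Old minus young controls was 0.94 ± 0.16. Restricted kidneys minus old controls was -0.49 ± 0.16, with -0.23 in titles 1 to 3 and -0.87 in titles 4 and 5. On arrays of this kind the suffix f marks probes shared by a family of similar sequences and s probes shared by several transcripts, so these values may hold RNA of related class II genes, and the 5 are not independent measurements.

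H2-Ab1, the beta chain of I-A, had 1 probe set, v01527_s_at on array B. It read 5585, 4216, 1337, 4698 and 3524 in restricted kidneys, 6852, 6946, 8208, 11585 and 10627 in old controls and 1028, 2634, 1886, 1954 and 2353 in young controls. Restricted kidney 3 and young control 1 lay below the floor, and restricted kidney 3 was the 1 restricted kidney within the young range. All old controls exceeded all restricted kidneys and all young controls. The means were 3872 ± 1603 in restricted kidneys, 8844 ± 2160 in old controls and 1971 ± 609 in young controls (SD, n = 5 each). On the floored log2 scale, old controls were 2.04 ± 0.25 above young controls, or 4.10-fold, and restricted kidneys differed from old controls by -1.22 ± 0.25 and from young controls by 0.82 ± 0.25. Because most young values stood close to the floor, the difference of old from young controls was 1.25 with the floor doubled. In titles 1 to 3 and titles 4 and 5 it was 1.81 and 2.38, and restricted kidneys differed from old controls by -1.06 and -1.45.

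The beta chain of I-E was the gene whose probe sets disagreed. H2-Eb1 probe set x00958_s_at on array B read 8883, 4585, 3672, 6653 and 4571 in restricted kidneys, 12656, 10065, 11006, 13741 and 14098 in old controls and 5303, 5436, 5974, 3415 and 3267 in young controls. Old controls lay above every other kidney, and restricted kidneys 1 and 4 lay above all young controls while the remaining 3 were within their range. Old controls were 1.43 ± 0.23 above young controls on the log2 scale, and restricted kidneys differed from old controls by -1.18 ± 0.23. By title set these were 1.01 and 2.07 for old against young controls, and -1.08 and -1.34 for restricted kidneys against old controls. Restricted kidneys minus young controls was 0.25 ± 0.23 in all, -0.07 in titles 1 to 3 and 0.73 in titles 4 and 5, so its sign turned between the sets.
The other H2-Eb1 probe set, for GenBank target X00702 on array B, read 7968, 5767, 8525, 8479 and 7414 in restricted kidneys, 6542, 4110, 3274, 5526 and 5646 in old controls and 5699, 4225, 3674, 4681 and 5215 in young controls. Here the restricted kidneys were the high group: all 5 stood above all young controls, and 4 stood above all old controls. The difference was 0.07 ± 0.19 for old against young controls, 0.63 ± 0.19 for restricted kidneys against old controls and 0.70 ± 0.19 for restricted kidneys against young controls. After group means were removed, the 2 probe sets correlated across the 15 kidneys with Pearson r = 0.12 and Spearman rho = 0.12 (permutation p = 0.635 and p = 0.647, two-sided, adjusted p = 0.664 and adjusted p = 0.791 over the 11 pairs of probe sets of 1 gene). Without restricted kidney 2 and old control 3, r was -0.03, and in titles 1 to 3 and titles 4 and 5 it was 0.13 and 0.72. Which of them tracks H2-Eb1 RNA cannot be read from these files.
C57BL/6 mice carry the b haplotype of the MHC, in which the alpha chain gene of I-E is silent and H2-Eb1 therefore has no partner at the cell surface. RefSeq lists H2-Ea as a transcribed pseudogene. Its 3 probe sets stood near or below background: M12818_rc_at ranged from -59 to 1187 in restricted kidneys, from 379 to 869 in old controls and from 345 to 813 in young controls, with restricted kidney 3 as the 1 array above the floor. The probe sets u13648_s_at and that for GenBank target V00834 were above the floor on 0 arrays, with highest values of 255 and 609 in restricted kidneys, 426 and 641 in old controls and 319 and 662 in young controls.

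Cathepsin S is the cysteine protease that completes the cleavage of the invariant chain in dendritic cells, B cells and macrophages. Ctss (aa255186_s_at, array A) read 2120, 1864, 1206, 1062 and 1704 in restricted kidneys, 4188, 3447, 3340, 4355 and 3348 in old controls and 1204, 1242, 1435, 638 and 1124 in young controls. All old controls exceeded all other kidneys, and 3 of the 5 restricted kidneys lay above the young range. Restricted kidney 4 and young control 4 were below the floor, and the young values stood close to it. The means were 1591 ± 446 in restricted kidneys, 3736 ± 495 in old controls and 1129 ± 297 in young controls (SD, n = 5 each). Old controls were 1.61 ± 0.17 above young controls, or 3.06-fold, and restricted kidneys differed from old controls by -1.26 ± 0.17 and from young controls by 0.35 ± 0.17. With the floor doubled the old against young difference was 0.75 and the diet difference -0.75, since every restricted and young kidney then lay at the floor. In titles 1 to 3 and titles 4 and 5 the diet difference was -1.11 and -1.49.

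**Figure D1:**
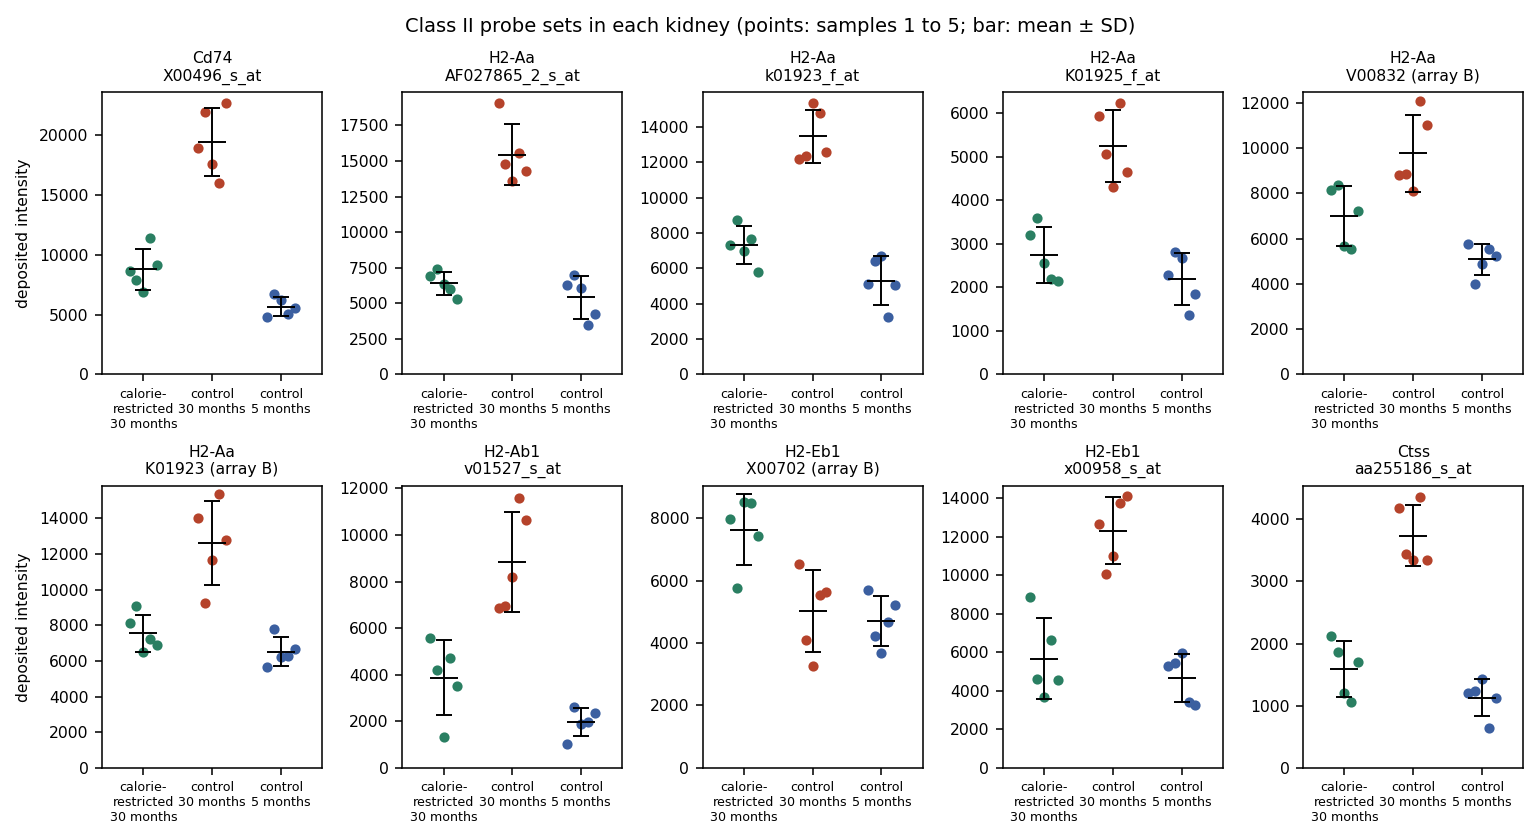
Deposited intensity of the 10 class II probe sets, 1 panel each, in calorie-restricted kidneys, old controls and young controls; points are the 5 samples of a group and the bars the mean ± SD. Old controls are the high group without overlap in 8 panels, overlap with restricted kidneys in H2-Aa V00832, and have a lower mean than restricted kidneys in H2-Eb1 X00702.

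Across the 10 probe sets, the mean order was old controls, restricted kidneys, young controls in 9, and restricted kidneys, old controls, young controls in the X00702 probe set of H2-Eb1. The difference of old controls from young controls was positive in 10 of 10, with a median of 1.41 (2.65-fold) and a range of 0.07 to 2.04, beside a median of -0.04 over all tested probe sets. Of the 10, 9 passed limma at an adjusted p under 0.05 in the upward direction, which 2.17% of all tested probe sets did, and 9 had ranges that did not overlap, which 2.85% had in that direction. Restricted kidneys were lower than old controls in 9 of 10, with a median of -1.05 (2.08-fold lower) and a range of -1.27 to 0.63, beside 0.03 over all probe sets. There 8 passed downward (1.65% of all) and 8 did not overlap downward (2.51% of all). The diet call of H2-Aa K01925_f_at was lost without restricted kidney 4, restricted kidney 5 or old control 1. Nothing is read from these shares, since the genes were chosen with these comparisons known.
Restricted kidneys were higher than young controls in 10 of 10, with a median of 0.40 (1.32-fold) and a range of 0.21 to 0.82, beside -0.01 over all probe sets. Of these, 1 passed upward, Cd74, against 1.99% of all tested probe sets. Its call was lost in 13 of 29 alternatives, among them leaving out restricted kidneys 1, 2, 4 or 5 or young controls 1, 3, 4 or 5. Only Cd74 and H2-Eb1 X00702 had restricted values that did not overlap with the young ones, against 3.34% of all in that direction. For the other 8 probe sets the ranges of restricted kidneys and young controls overlapped. In whole kidney, fewer cells of a type and less RNA per cell cannot be told apart.

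**Figure D2:**
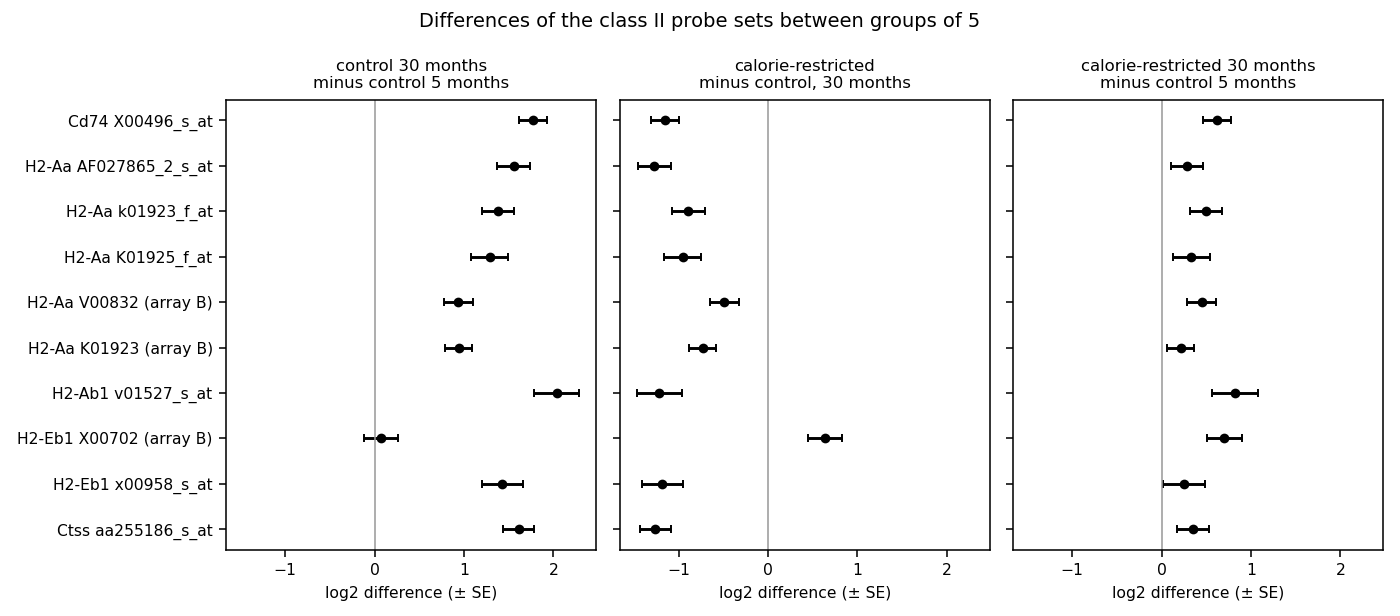
Log2 difference ± SE of each class II probe set for old against young controls, restricted kidneys against old controls, and restricted kidneys against young controls, 5 kidneys a group. Values run from 0.07 to 2.04 in the left panel, from -1.27 to 0.63 in the middle and from 0.21 to 0.82 on the right, and X00702 of H2-Eb1 is the 1 probe set above 0 in the middle panel.

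Differences within the groups did not enter the choice of the genes, and were used to ask whether the 5 genes vary together from kidney to kidney. With 1 probe set a gene, the brightest, and group means removed, 8 of the 10 gene pairs had a positive Pearson r across the 15 kidneys, with a median of 0.41 and a range of -0.18 to 0.61. For H2-Eb1 the brightest was x00958_s_at, and the X00702 probe set did not enter. By permutation of kidneys within groups (100000 permutations, two-sided, Benjamini-Hochberg over 10 pairs) 0 pairs passed and 2 had an unadjusted p under 0.05. By Spearman's rho 0 pairs passed as well.
The chains of I-A, H2-Aa and H2-Ab1, correlated most, with r = 0.61 and rho = 0.64 (permutation p = 0.0177 and p = 0.0230, adjusted p = 0.177 and adjusted p = 0.216). Without old controls 2 and 4, the farthest on H2-Aa, r was 0.56, and it was 0.58 in titles 1 to 3 (n = 9) and 0.58 in titles 4 and 5 (n = 6). The 2 beta chains, H2-Ab1 and H2-Eb1, had r = 0.60 and rho = 0.53 (permutation p = 0.0408 and p = 0.0475, adjusted p = 0.204 and adjusted p = 0.216). Without restricted kidneys 1 and 3, the farthest on H2-Ab1, r was 0.28, and it was 0.74 in titles 1 to 3 and 0.73 in titles 4 and 5. With the tested type B probe sets outside the 5 genes, H2-Aa, H2-Ab1 and H2-Eb1 had a median r of 0.12, 0.06 and 0.01. Of those probe sets, 6.23%, 7.50% and 2.32% had r above 0.50, in the same order. Cd74 gave r = -0.03 with H2-Aa and -0.18 with Ctss. In titles 1 to 3 all 10 pairs were positive and in titles 4 and 5, 6 were, with Ctss against H2-Eb1 at 0.83 and -0.90. By the titles the genes of a pair share their kidney, and those on array B also share the array.
In these brightest probe sets, restricted kidney 3 was the lowest of its group in Cd74, H2-Aa, H2-Ab1 and H2-Eb1. In the X00702 probe set of H2-Eb1 it was the highest of its group, at 8525. Over the 5 genes the mean deviation of restricted kidney 3 was -0.50 on the log2 scale. Its low values were not limited to these genes. Its summed kidney markers were 197273, against 239398 to 317019 in the other restricted kidneys. Of the lists given below, its sum was also lowest for the class II pathway, macrophage and T cell lists. It was not lowest for the interferon gamma, B cell and pan-leukocyte lists, and was highest for the dendritic cell list. Restricted kidney 1 had the highest mean deviation, 0.37, and the other 13 kidneys lay between -0.19 and 0.23.
The probe sets of H2-Aa show how far 1 gene can be followed at this level. On the same array type, 4 pairs of them had r of 0.32 to 0.90, and 2 passed over 11 pairs: AF027865_2_s_at with K01925_f_at (r = 0.90, rho = 0.86, permutation adjusted p = 0.000220 and adjusted p = 0.00220) and K01925_f_at with k01923_f_at (r = 0.74, adjusted p = 0.0459, with rho = 0.65 and adjusted p = 0.1005). Without the 2 kidneys farthest on the first of each pair these r were 0.83 and 0.53. In titles 1 to 3 they were 0.82 and 0.24, and in titles 4 and 5 they were 0.83 and 0.82. Between the array types 6 pairs had r of -0.18 to 0.50, and 0 passed, although by the titles the kidneys were the same.

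The other genes of the class II pathway were taken from a list of 38, of which 26 had a named probe set and 9 were tested. By limma with Benjamini-Hochberg adjustment 0 of the 9 passed in any of the 3 comparisons. At an unadjusted p under 0.05 the counts were 0 for old against young controls, 0 for restricted kidneys against old controls and 1 for restricted kidneys against young controls, Ap3b1, a subunit of an endosomal adaptor named after its values were seen. The median log2 differences were 0.10, 0.01 and 0.01, beside -0.04, 0.03 and -0.01 over all tested probe sets. Percentages of all tested probe sets that passed in either direction were 3.39% for old against young controls, 2.55% for the diet and 3.82% for restricted kidneys against young controls. At an unadjusted p under 0.05, 665, 648 and 741 of all 4428 tested probe sets were counted, in the same order. These numbers are the background for the unadjusted counts of every gene list, the kidney markers included.
H2-DMb1, a chain of the peptide exchanger whose promoter window holds the same motif pair as H2-Aa and H2-Eb1, averaged 2220 ± 515 in restricted kidneys, 2561 ± 296 in old controls and 2266 ± 299 in young controls (SD, n = 5 each). It differed by 0.18 ± 0.15 between old and young controls and by -0.17 ± 0.15 between restricted kidneys and old controls. The 5 endosomal proteases that were tested, Lgmn, Ctsb, Ctsd, Ctsh and Ctsl, were above the floor on all 15 arrays, while Ctsk was on 4, Ctsc on 2 and Ctse on 0. Lgmn averaged 25784 ± 6945 in restricted kidneys, 25482 ± 3212 in old controls and 28084 ± 4063 in young controls, with differences of -0.14 ± 0.17 and -0.01 ± 0.17 for ageing and diet. Ctsl, the cathepsin that takes the place of Ctss in thymic epithelium, differed by -0.26 ± 0.20 and -0.12 ± 0.20. Ctsb and Ctsd, general lysosomal cathepsins, differed by 0.01 ± 0.18 and 0.13 ± 0.38 with age, and by 0.22 ± 0.18 and 0.11 ± 0.38 with the diet. Cst3, the secreted inhibitor cystatin C, read 0.40 ± 0.30 with age and -0.47 ± 0.30 with the diet. Several of these proteases are also known from tubular lysosomes.
H2-DMa, the partner chain of H2-DMb1, and Ciita were above the floor on 0 arrays. Ciita ranged from -87 to 312 in restricted kidneys, from -180 to 715 in old controls and from -558 to 43 in young controls. In all, 13 of the 26 genes on the arrays were above the floor nowhere, so a change in them was not detectable at this signal.
Of 26 genes of the interferon gamma pathway, 24 were on the arrays and 6 were tested, and 0 passed in any of the 3 comparisons. The unadjusted count was 1, 0 and 1 for old against young controls, restricted kidneys against old controls, and restricted kidneys against young controls, each time Ifngr1, a chain of the receptor named after its values were seen. Ifngr1 averaged 1606 ± 228 in restricted kidneys, 1723 ± 210 in old controls and 1166 ± 277 in young controls, and differed by 0.48 ± 0.15 with age (adjusted p = 0.0921) and by -0.11 ± 0.15 with the diet. It passed with age without young control 5, at 0.58. Irf1, a transcription factor that interferon gamma induces, differed by 0.21 ± 0.29 and -0.17 ± 0.29. Ifng itself was above the floor on 0 arrays, as were 14 others of the list. The medians were 0.14, -0.11 and 0.01. Whether the class II genes differ from these lists was not tested.

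**Figure D3:**
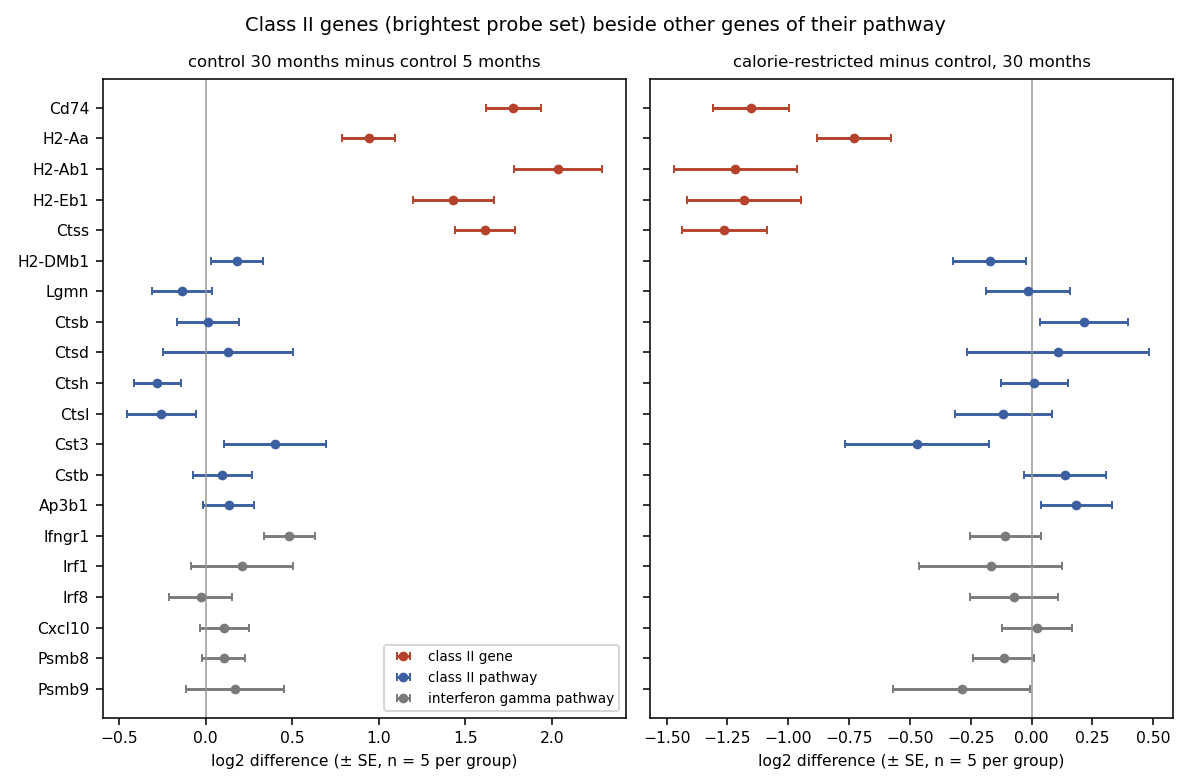
Log2 difference ± SE, 5 kidneys a group, of the 5 class II genes (brightest probe set), the 9 tested genes of the class II pathway and the 6 of the interferon gamma pathway, for old against young controls (left) and restricted kidneys against old controls (right). The class II genes lie between 0.94 and 2.04 on the left and between -1.26 and -0.73 on the right, while the listed pathway genes lie between -0.28 and 0.48 on the left and between -0.47 and 0.22 on the right. The 5 genes were chosen with these comparisons known, so their distance from the listed genes is a description and was not tested. Brightest means the highest mean over all 15 kidneys. For H2-Eb1 that was x00958_s_at, and X00702, at 0.07 and 0.63, is not drawn. In restricted kidneys X00702 was the brighter one, with a mean of 7631 against 5673.

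Some macrophage and monocyte markers and some B cell and plasma cell markers passed in comparisons of the same groups, while no tested dendritic cell marker did. Of all tested probe sets, 2.17% passed upward with age, 1.65% downward with the diet and 1.99% upward for restricted kidneys against young controls. Unadjusted p under 0.05 was reached by 665, 648 and 741 of the 4428, in the same order. Of 16 macrophage and monocyte markers on the arrays 8 were tested, and 4 rose in old against young controls by limma: the lysozyme gene Lyz2 by 1.67 ± 0.30 (adjusted p = 0.00319), Laptm5, a lysosomal membrane protein of leukocytes, by 0.87 ± 0.20, C1qb, a complement chain made by macrophages, by 0.79 ± 0.17, and Fcer1g, the shared chain of Fc receptors, by 0.73 ± 0.19. The 4 that did not pass with age were C1qc at 0.59 ± 0.19, Cd68 at 0.33 ± 0.20, Lgals3 at 0.02 ± 0.17 and Cd14 at -0.19 ± 0.18. The call of Fcer1g (adjusted p = 0.0393) was lost in 16 of 29 alternatives, among them leaving out restricted kidney 1, any of old controls 1 to 4 or young controls 1, 2, 4 or 5. That of Laptm5 (adjusted p = 0.0222) was lost in 9 of 29, without old controls 3, 4 or 5 and without young controls 3 or 5 among them. Under the diet C1qb fell by 1.15 ± 0.17 (adjusted p = 0.000771), while Lyz2 at -0.92 ± 0.30 (adjusted p = 0.143) and Laptm5 at -0.70 ± 0.20 (adjusted p = 0.0884) did not pass. Between restricted kidneys and young controls 0 of the 8 passed, with 2 at an unadjusted p under 0.05 (C1qb and Lyz2).
The summed level of the 16 markers was 28817 to 43349.8 in restricted kidneys, 47908 to 58629.5 in old controls and 29085 to 39999 in young controls, so that old controls overlapped with neither of the others. The defining markers Adgre1 and Csf1r were above the floor on 0 arrays.
Of 14 B cell and plasma cell markers 7 were tested, and with age 3 passed upward and 4 did not pass. Ighm, Igha and Jchain, the IgM and IgA heavy chains and the chain that joins them, rose with age: Ighm by 3.66 ± 0.36 (adjusted p = 9.16e-06), Igha by 4.54 ± 0.48 (adjusted p = 1.88e-05), and Jchain, at the floor in all 5 young controls, at least 7.35-fold (adjusted p = 6.84e-08). Raised to the floor, the young Jchain values have a spread of 0, which lowers the SE and the p-values of Jchain. Under the diet Ighm fell by 2.57 ± 0.36, Igha by 2.40 ± 0.48, Jchain by 2.07 ± 0.18 and Cd37 by 0.90 ± 0.18, with adjusted p from 5.08e-06 to 0.0105. Igha and Jchain were also higher in restricted kidneys than in young controls (adjusted p = 0.0173 and adjusted p = 0.0177), Jchain no longer without restricted kidney 4 or with the floor doubled. The summed level of the 14 was 29063 to 55437 in restricted kidneys, 95858.5 to 191147 in old controls and 26644 to 35235.5 in young controls, again with old controls apart. This sum is weighted by its brightest genes. Ighm and Igha averaged 45849 and 40935 in old controls and 3131 and 1753 in young controls. The B cell receptor chain Cd79a and the B cell lectin Cd22 were above the floor on 0 arrays, and Ms4a1, which encodes CD20, differed by -0.09 and -0.28 for ageing and diet without passing. The remaining tested markers, Cd79b, Cd37 and Blk, differed with age by 0.28 ± 0.15, 0.28 ± 0.18 and 0.33 ± 0.24 without passing. With the diet Cd79b and Blk differed by -0.36 ± 0.15 and -0.75 ± 0.24, also without passing. At an unadjusted p under 0.05 the count among the 7 was 3 with age, 6 with the diet and 4 between restricted kidneys and young controls. Ms4a1 was the brightest of the 14 in young controls, with a mean of 19707 there and 18240 in old controls.
Dendritic cell markers were 6 on the arrays, with 3 tested and 0 passed. At an unadjusted p under 0.05 the count was 1 (Cd83, named after its values were seen) with age, 0 with the diet and 0 between restricted kidneys and young controls, and the growth factor receptor Flt3 and the homing receptor Ccr7 were above the floor on 0 arrays. Of 10 T cell markers 9 were above the floor nowhere. Cd3e, the 1 tested, differed by 0.05 and 0.41 without passing, and Cd3d was at background on every array. Of 8 pan-leukocyte markers 3 were tested and 0 passed, with an unadjusted count of 0 with age, 1 with the diet (Ptpn6, named after its values were seen) and 0 between restricted kidneys and young controls. Ptprc (CD45) differed by 0.22 with age and by less than 0.01 with the diet. Summed levels of these 3 lists overlapped between all groups. The part of these cell types in the class II values was not tested.

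**Figure D4:**
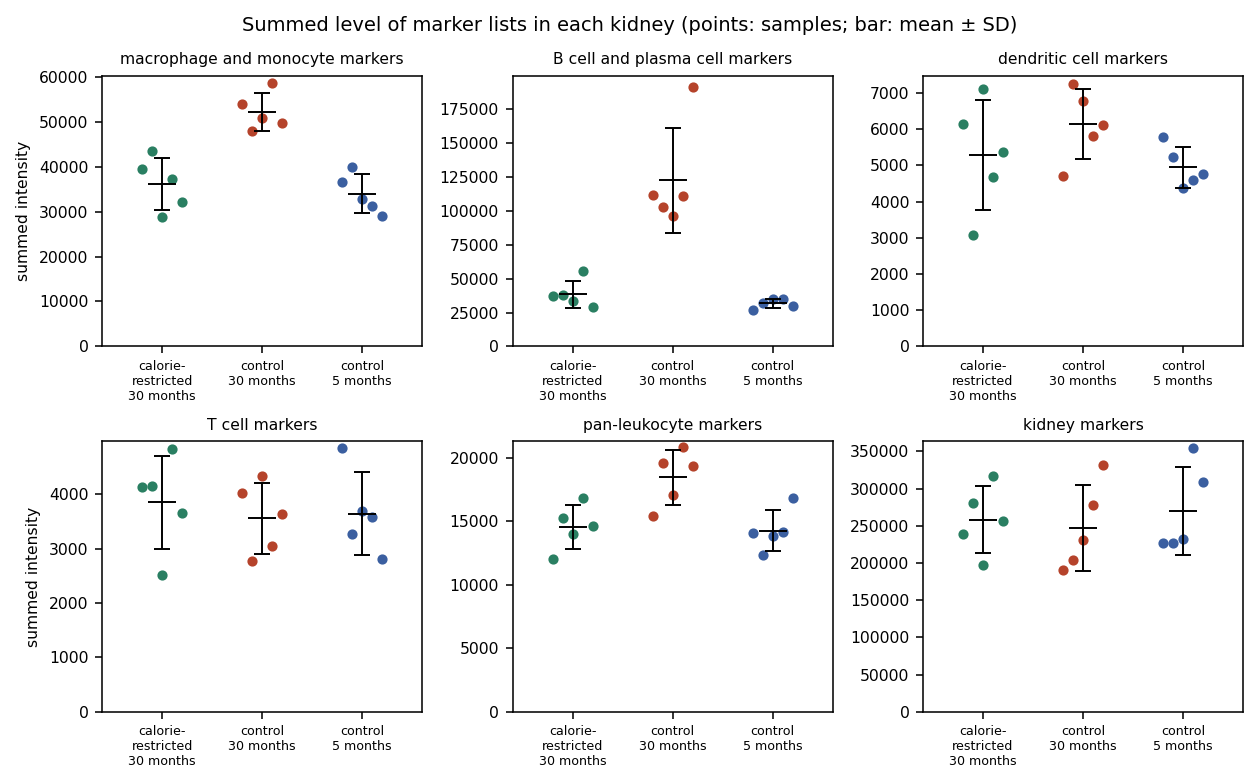
Summed intensity of 6 marker lists in each kidney, calorie-restricted kidneys left, old controls in the middle and young controls right; points are samples and bars the mean ± SD. Old controls stand apart from both other groups for macrophage and monocyte markers and for B cell and plasma cell markers, and the groups overlap in the other 4 panels. The sums are weighted by the brightest genes, in the B cell and plasma cell panel Ighm and Igha in old controls.

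The named genes outside the 5 whose pattern was most like theirs were found by the correlation of each gene's brightest probe set with the mean of the 5 centred genes over the 15 kidneys, given as a description over 2658 genes (median r = -0.03). The highest were Ighm (0.95), the membrane-bound chemokine Cx3cl1 (0.93), Jchain (0.92), Lyz2 (0.90) and Tmsb10 (0.90), an actin-binding peptide. All kidneys share their groups here, and the old controls form a level of their own. After group means were removed, the same genes had r of 0.52, 0.51, -0.16, 0.77 and 0.39.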

How the data were processed

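The 5 genes, the gene lists and the tests were chosen with earlier results of these data known. Each deposited intensity is a whole number, negative in 20.6% to 26.6% of an array of type A and 29.2% to 35.9% of type B, and per the labels' titles each kidney has a sample on both types. How the authors made the intensities they deposited is not given in the sources used here. Their trimmed means show that they had been scaled.

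From these values each array was multiplied by 0.995 to 1.01 so that its mean, with 2% trimmed off both tails, met that of its table. Values below a floor, the root mean square of the table's negative ones (1103 for type A and 1821 for type B), were raised to it and log2 was taken, so differences of dim probe sets are understated. Printed intensities are as deposited, and summed marker levels use scaled values with negative ones as 0. The tables held 6584 and 6595 rows, and 110 control rows and 22 rows blank on some arrays were left out. Array annotation gave 7561 probe sets 1 symbol, 224 several and 5394 none, and 7544 symbols were updated through a RefSeq table of GRCm38.p6. The types were normalized separately and joined by title. One model over all 15 kidneys was fitted in R 4.3.3 by lmFit and eBayes of limma 3.58.1, and p-values were adjusted by Benjamini-Hochberg over the 2609 and 1819 probe sets above the floor on at least 5 arrays. On array B, 255 rows whose young values lay in another order were set apart, 85 of which would have been tested. The fit was tested on simulated data. Correlations were computed with numpy 2.4.6 in Python 3.11.15 and figures drawn with matplotlib 3.10.9.

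Named were all probe sets of the 5 genes, pathway genes that passed and a fixed few with values only, passing markers and the first 2 of each list, and the 5 most alike genes by either correlation. The tested macrophage and monocyte markers that did not pass with age were named after their values were seen, as were Cd79b and Blk. A list gene stands for its brightest tested probe set. Alternatives were other scaling, floors, filters, moderation, probe set rules, samples in the fit, the title number as a block, the title sets, and leaving out each kidney.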

Additional observations from a re-analysis of the deposited data

How the results depend on the processing

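Of 870 differences of the class II probe sets under alternatives, 853 moved by less than the spread between replicates and 17 by more, and no called one changed sign. Calls were lost: of the 9 class II probe sets that passed with age 6 did so in titles 1 to 3 and 2 in titles 4 and 5, and of the 8 that passed with the diet 3 did so with no filter, 4 in titles 1 to 3 and 0 in titles 4 and 5. The limits are the floor, which holds most dim genes, and the title sets. Probe sets passing for old against young controls numbered 150, and 86 with no filter, 228 with the set-apart rows kept, 253 with the title set as a term, 85 in titles 1 to 3 and 23 in titles 4 and 5, with 108 to 175 when each kidney was left out. For restricted kidneys against old controls they were 113, and 55 with the floor passed on at least 8 arrays, 47 with no filter, 70 with only the compared groups, 216 with the title set as a term, 241 in titles 1 to 3 and 5 in titles 4 and 5, with 69 to 121 when each kidney was left out (69 without restricted kidney 1, 72 without restricted kidney 5). For restricted kidneys against young controls they were 169, and 94 with no filter, 258 with the set-apart rows kept, 338 with the title set as a term and 2 in titles 4 and 5, with 111 to 187 when each kidney was left out (111 without young control 3, 112 without young control 2). Alone, titles 4 and 5 leave 2 kidneys a group. In the class II pathway list 1 gene passed with age with the floor halved, Ctsc at 0.83, which the higher floor keeps out. In the interferon gamma list 1 passed with age with the title set as a term and 1 without young control 5, with 0 to 1 when each kidney was left out. Of the gene pairs 1 passed with the floor doubled and 1 without old control 1, with 0 to 1 when each kidney was left out. The cause of these changes was not tested. Kidneys of the same title number correlated in their deviations with r of -0.01 to 0.50, over 0.1 in 13 of 15 pairs, and 2 of 15 correlated best with their own number, so the number was not taken as pairing. With the title number as a replicate block 172, 158 and 244 probe sets passed, in the order above, and 0 genes of the class II and interferon gamma pathway lists.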

Other observations

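After group means were removed, the genes whose deviations were most like the mean of the 5 class II genes over the 15 kidneys were Fabp4, a fatty acid carrier of fat cells and macrophages (r = 0.86), Pdcd6 (0.82), a calcium-binding protein, Pcid2 (0.81), Cdk4 (0.78), a kinase of the cell cycle, and Lyz2 (0.77), beside a median of 0.00 over 2658 genes. These r are the highest of a search and a description only. Fabp4, Pdcd6, Pcid2, Cdk4 and Lyz2 were measured on array A, and 4 of the 5 class II probe sets used here on array B. With group differences left in, r was 0.13 for Fabp4, 0.38 for Pdcd6, 0.33 for Pcid2 and -0.12 for Cdk4, so these genes did not follow the order of the groups. Lyz2 was among the most alike genes by both measures, with r = 0.90 when the group differences were left in.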
